A study of Mus musculus with 8 samples.

Results

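The cell cycle genes described here are 44 genes whose transcripts rise and fall as cells replicate their DNA and divide. They were chosen by name, with earlier results of these data known, out of 18141 genes in the gene tables of both sorts together. The S list has 15 genes that act in DNA replication or peak around it: Mcm2, Mcm3, Mcm4, Mcm5, Mcm6, Mcm7, Pcna, Rrm1, Rrm2, Tyms, Gmnn, Pclaf, Ccne1, Ccne2 and Cdca7. The G2/M list has 26 genes that peak before and during mitosis: Top2a, Mki67, Cenpf, Cenpe, Cenpa, Prc1, Spc25, Cks2, Hmgb2, Cdca8, Cdca3, Cdk1, Ccnb1, Ccnb2, Ccna2, Ube2c, Birc5, Aurka, Aurkb, Plk1, Bub1, Bub1b, Tpx2, Nusap1, Ncapg and Ttk. The other 3 genes, Ccnd1, Ccnd2 and Cks1b, were kept apart from both lists. Of the 44, 43 were in the table of the first sort (D1Tom), where Ube2c was not, and all 44 were in that of the second (GTE).

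Cells from the frontal isocortex of mice at postnatal day 7 were sorted for a fluorescent reporter and profiled by droplet single-cell RNA sequencing, which counts molecules at transcript 3′ ends. One sort took cells with red fluorescence from a Drd1a-tdTomato transgene (D1Tom), a bacterial artificial chromosome reporter of the dopamine D1 receptor gene, and the other was for golli-τ-eGFP (GTE), a reporter driven from the golli promoter of the Mbp locus. All mice carried 2 floxed Foxp2 alleles (Foxp2 flox/flox) on a C57BL/6J background. In the conditional knockouts (cKO), Emx1-Cre was present as well, which acts in the dorsal telencephalic lineage of excitatory neurons, astrocytes and oligodendrocyte-lineage cells and not in most interneurons, microglia or endothelial cells, and the controls were littermates without Cre. Each sort had 2 control and 2 cKO libraries, 8 in all. In D1Tom, control 1, control 2 and cKO 1 were labelled female and cKO 2 male, and control 1 and cKO 1 were prepared on 1 day and control 2 and cKO 2 on another, so that batch is balanced between the groups. In GTE, control 1, control 2 and cKO 1 were labelled male and cKO 2 female, and the preparation batches could not be taken from the labels. Where 4 values of a sort are given, they stand in the order control 1, control 2, cKO 1, cKO 2.

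A cell that enters the cycle first makes D-type cyclins, which with CDK4 or CDK6 inactivate the retinoblastoma protein and free E2F factors to switch on the genes of DNA replication. Later the same cell turns on mitotic genes, many of them under the DREAM complex and B-MYB with FOXM1. These act through CHR elements, which are often paired with CCAAT elements in short promoters just before the gene start. In the cortex shortly after birth, excitatory neurons have left the cycle, while oligodendrocyte precursors, astrocytes, microglia, endothelial cells and the migrating neuroblasts of the subventricular system still divide.

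Both kinds of promoter are shown because the 2 lists had different median fold changes in the GTE sort. The windows below are the 120 bases before the annotated start of 5 genes, from RefSeq on GRCm38.p6, written 5′ to 3′ on the strand of the gene. Capitals mark matches on either strand to the CHR letters TTTGAA, the CCAAT box CCAAT, or 1 of 2 E2F letter strings, TTCCCGC and TTGGCGC, and a match read from the opposite strand appears as its reverse complement. Top2a lies at chr11:99024190-99024309 (minus strand), Hmgb2 at chr8:57511723-57511842 (plus), Ccnb1 at chr13:100786487-100786606 (minus), Cdca7 at chr2:72476099-72476218 (plus) and Mcm6 at chr1:128359706-128359825 (minus). In Ccnb1 the first marked run is an E2F match that overlaps a CCAAT match.
Top2a: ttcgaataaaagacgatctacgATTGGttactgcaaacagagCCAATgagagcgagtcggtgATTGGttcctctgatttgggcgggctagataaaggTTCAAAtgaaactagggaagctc
Hmgb2: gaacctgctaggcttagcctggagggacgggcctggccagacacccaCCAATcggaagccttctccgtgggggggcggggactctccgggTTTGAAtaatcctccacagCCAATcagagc
Ccnb1: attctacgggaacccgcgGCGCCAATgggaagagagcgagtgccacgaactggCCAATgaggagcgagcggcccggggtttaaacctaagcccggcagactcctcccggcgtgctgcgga
Cdca7: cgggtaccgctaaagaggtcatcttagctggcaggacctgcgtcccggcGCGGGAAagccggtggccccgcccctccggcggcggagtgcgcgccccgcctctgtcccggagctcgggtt
Mcm6: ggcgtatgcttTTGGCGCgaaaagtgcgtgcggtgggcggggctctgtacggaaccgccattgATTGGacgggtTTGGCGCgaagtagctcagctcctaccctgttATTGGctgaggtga

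Top2a and Hmgb2, which both encode proteins that act on the structure of DNA in chromosomes, each had a CHR match near the start, beginning 23 and 30 bases before it. The CCAAT matches of Top2a all lay upstream of the CHR match, and those of Hmgb2 lay on both sides of it. Cdca7, which encodes a zinc finger protein induced by E2F and MYC, and Mcm6, a subunit of the replicative helicase, had E2F matches and no CHR match in these windows. The same held for Ccnb1 of the G2/M list, and both Ccnb1 and Mcm6 had CCAAT matches. Of the 44 genes, 36 had a promoter entry in the RefSeq table, and matches were counted in the 250 bases before each start, on both strands and with overlaps allowed. CCAAT was in 22 of 24 windows of G2/M genes, 10 of 13 windows of S genes and 33.8% of 32851 windows of all genes. CHR was in 8 of 24 G2/M windows, 1 of 13 S windows and 16.0% of all windows. Either E2F string was in 3 of 24 G2/M windows, 6 of 13 S windows and 5.62% of all windows. These are matches of letters and were not tested for binding.

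The libraries held 2395 to 3206 cells in D1Tom and 1440 to 3948 in GTE. Median counts per cell were 7198 to 12815 in D1Tom, and 1085.5, 1163, 2982 and 1268 in GTE, so GTE cKO 1 was deeper per cell and had the fewest cells. At most 27 cell barcodes were shared by any pair of libraries. Foxp2, the targeted gene, was at 36.3, 39.1, 26.5 and 19.4 CPM (a gene's count scaled to a common library total) over all D1Tom cells, and at 9.52, 46.9, 25.4 and 7.43 CPM in GTE, where the groups overlapped. Whether the counted 3′ end lies outside the floxed part is not stated in the labels, so these values check no genotype. Clusters were named from marker genes for 72.3% of D1Tom cells and 22.3% of GTE cells, and the large GTE clusters 0 to 4 had no name. Both sorts held glia as well as neurons, and neither selected for dividing cells.

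The cell cycle genes were found mainly in glia and in neuroblasts. Among the 9 D1Tom types and clusters with at least 30 cells in every library, the mean CPM was highest in neuroblast (Sp8, Sp9)-like cells for 28 of the 43 genes and in oligodendrocyte precursor (OPC)-like cells for the other 15. In GTE, among 8 such types, OPC-like cells were highest for 35 of 44. Summed over the G2/M list, D1Tom neuroblast-like cells were at 2874, 2955, 3200 and 2953 CPM. OPC-like cells were at 2932, 1870, 3394 and 1386 CPM and astrocyte-like cells at 1509, 1233, 1350 and 873 CPM. Excitatory neuron-like cells, which have left the cycle, were at 134, 221, 149 and 348 CPM, below all of these in every library. Interneuron-like cells were as low, at 124, 344, 92.5 and 279 CPM.

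**Figure D1:**
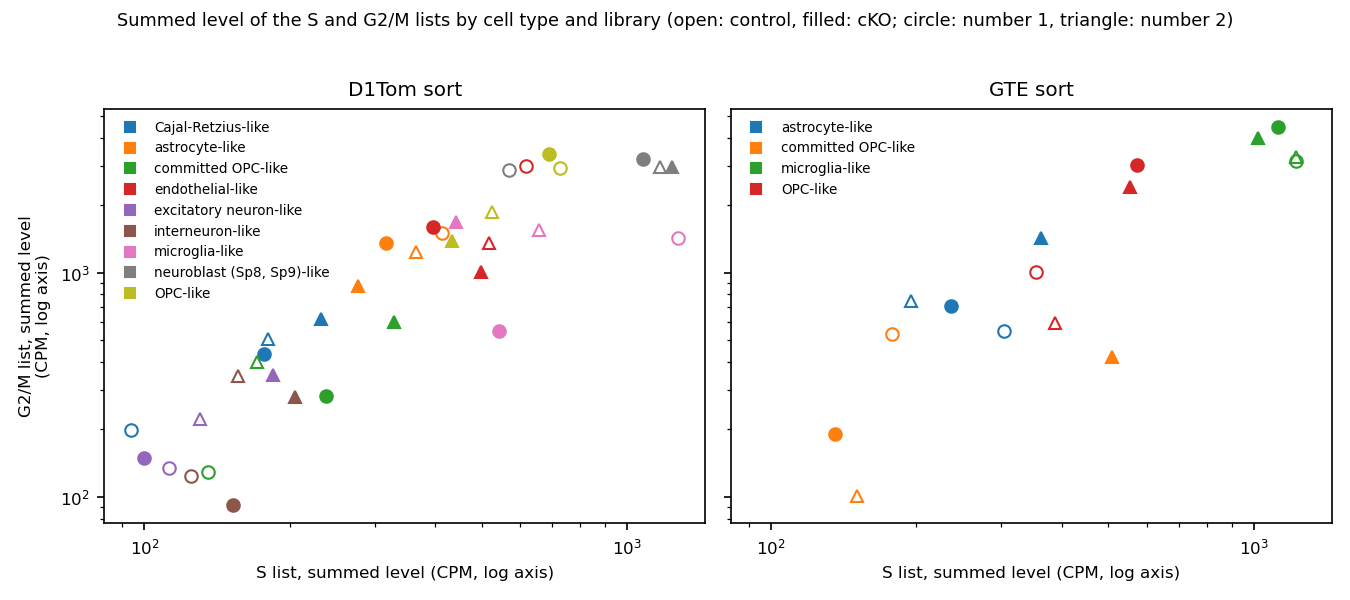
Summed level of the S list (horizontal, CPM, log axis) against the G2/M list (vertical, CPM, log axis) by named cell type and library in each sort; open symbols are controls, filled symbols cKO, circles number 1 and triangles number 2. Neuroblast-like cells lie at the top in D1Tom (G2/M sums of 2874 to 3200 CPM) with some OPC-like and endothelial-like libraries, and microglia-like cells in GTE (3143 to 4448 CPM).

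The 2 lists did not have the same balance in every type. Over all cells the G2/M sum was 2.88 times the S sum in D1Tom and 3.17 times in GTE, each with its genes as listed (25 G2/M genes in D1Tom and 26 in GTE). The ratio was 4.04 in D1Tom OPC-like cells and 3.62 in astrocyte-like cells. It was 1.62 in excitatory neuron-like cells and 1.31 in interneuron-like cells, in which both sums were low. Endothelial-like cells were at 3.43 and microglia-like cells at 1.79.

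The D-type cyclins had another order of types than the G2/M list. Ccnd2, the D-type cyclin of many neural progenitors, was at 1738, 1166, 1264 and 967 CPM in D1Tom astrocyte-like cells. It was at 437, 445, 315 and 363 CPM in OPC-like cells. In neuroblast-like cells it was at 707, 1311, 1597 and 2296 CPM, with both cKO libraries above both controls. Ccnd1 was at 310, 150, 216 and 135 CPM in OPC-like cells, 144, 105, 114 and 104 CPM in astrocyte-like cells and 10.7, 32.0, 13.4 and 46.6 CPM in excitatory neuron-like cells.

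Within a sort, genes were ranked by how closely their CPM followed Top2a (DNA topoisomerase II alpha, which untangles replicated chromosomes) over the sums of each library and fitted type. In D1Tom, over 36 sums of 9 types, the 5 closest were Ckap2l, Kif15, Ccna2, Ect2 and Smc4, with Spearman correlations of 0.949, 0.945, 0.945, 0.941 and 0.940. All 5 have known roles in mitosis or chromosome structure, and Mki67, the gene of the Ki-67 antigen, ranked 13 of 14508 genes at 0.927. In GTE, over 32 sums of 8 types, the 5 closest were Sptlc2, Atrx, Ric3, Masp1 and Dhodh, at 0.857 to 0.835, and none is a member. Mki67 ranked 33 of 12042 there, at 0.799, and Gmnn was at -0.037. The sums share libraries, depth and cell types, so these correlations only describe the tables.

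Dividing cells were counted next. Each cell was thinned to 1000 counts, so that every cell had the same total. Before thinning, the ratio of counts of 2 to counts of 1 was 1.69, 0.72, 1.54 and 0.31 in D1Tom. In GTE this ratio was 0.92, 1.35, 0.93 and 1.03. Its part in the chance of detection at 1000 counts was not tested. A cell was called dividing if at least 2 different S genes or at least 2 different G2/M genes were seen. It was placed in G2/M if at least 2 G2/M genes, and at least as many G2/M as S genes, were seen, and otherwise in S. Cells under 1000 counts were left out, at most 12 per D1Tom library but 1752, 1244, 10 and 1022 in GTE. Genes that the call did not use differed between the called cells and the rest. The 31 other G2/M genes of a separate list, in sum, were at 4292, 2334, 3833 and 2208 CPM in the D1Tom G2/M cells, against 213, 244, 210 and 250 CPM in cells not called. In GTE they were at 1895, 3529, 5415 and 3351 CPM in G2/M cells, against 212, 165, 251 and 178 CPM. In D1Tom S cells, 26 other replication genes were at 1256, 897, 1297 and 1051 CPM, against 261, 258, 248 and 243 CPM in cells not called. In D1Tom G2/M cells these replication genes were at 1103, 663, 923 and 774 CPM, nearer to the S cells than to the cells not called.

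In D1Tom, 1302 of 11469 cells were called dividing. The share was 8.70% in control 1 (278 of 3194 cells, exact 95% binomial interval 7.75 to 9.74%) and 13.2% in control 2 (315 of 2395, 11.8 to 14.6%). It was 9.78% in cKO 1 (274 of 2801, 8.71 to 10.9%) and 14.1% in cKO 2 (435 of 3079, 12.9 to 15.4%). The intervals cover counting error only. Under this counting rule batch moved with the share: both libraries numbered 2 were above both numbered 1, and within each batch the cKO library was the higher. The groups overlapped, with means of 10.9 ± 3.15% and 12.0 ± 3.07% (SD, n = 2 libraries each) and a difference of 1.03 percentage points (exact permutation test, two-sided, p = 0.667). With the cell type shares held at their mean over the libraries, the values were 9.95, 14.2, 10.0 and 12.1%, and the difference was -1.05 points. It was -1.20 points without control 1 and -1.15 without cKO 2. The order by batch depended on the counting rule. Thinned to 500 counts with at least 3 genes required, the shares were 4.34, 4.05, 4.66 and 3.99%. Both libraries numbered 2 were then below both numbered 1, and cKO 2 was below control 2.

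In GTE, 446 of 7354 cells were called dividing. The share was 4.46% in control 1 (98 of 2196 cells, exact 95% binomial interval 3.64 to 5.41%) and 3.56% in control 2 (65 of 1827, 2.76 to 4.51%). It was 10.4% in cKO 1 (149 of 1430, 8.88 to 12.1%) and 7.05% in cKO 2 (134 of 1901, 5.94 to 8.29%). Both cKO libraries lay above both controls, with means of 4.01 ± 0.64% and 8.73 ± 2.38% (SD, n = 2 libraries each). The difference was 4.72 percentage points, with p = 0.33 by the two-sided exact permutation test, which is the smallest that 2 against 2 libraries can give. With cell type shares held at their mean the values were 6.13, 3.94, 12.4 and 8.79%, a difference of 5.58 points. Among cells classed as excitatory neurons by their own markers, which should not divide, 2.56% (3 of 117), 1.95% (3 of 154), 0% (0 of 20, with an exact 95% upper bound of 16.8%) and 7.69% (9 of 117) of GTE cells were called dividing at the same 1000 counts. Both GTE controls and GTE cKO 1 were above this class in their own library, and GTE cKO 2 was not. In D1Tom the same class was at 1.70, 4.32, 1.30 and 5.65%, below the share of all cells in every library.

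**Figure D2:**
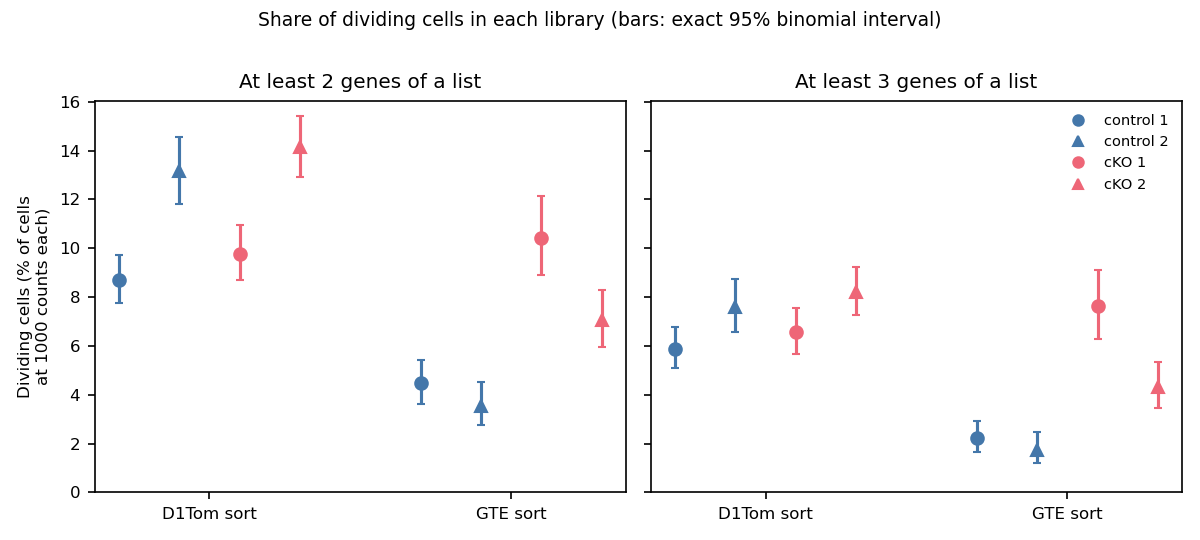
Share of dividing cells in each library (vertical axis, % of cells thinned to 1000 counts; bars, exact 95% binomial interval), called from at least 2 genes of a list (left) or at least 3 (right). The GTE cKO libraries lie above the GTE controls in both panels, while the D1Tom groups overlap and the D1Tom triangles, which mark number 2, lie above the circles.

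By this rule most dividing cells were in the G2/M class, and its share of the dividing cells overlapped between genotypes in both sorts. The rule favours this class, since the G2/M list has more genes and a higher summed level and takes the ties. The size of the share is therefore no measure of the phases themselves. It was 79.9, 81.0, 78.1 and 81.4% in D1Tom, a difference of -0.66 points (exact permutation test, two-sided, p = 1). In GTE it was 86.7, 83.1, 81.9 and 85.8%, a difference of -1.06 points (exact permutation test, two-sided, p = 0.667). The sign of both differences changed with the counting rule. When at least 3 genes were required, the D1Tom difference was -2.68 points and the groups did not overlap, with p at the smallest value the exact permutation test allows.

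The call uses the same genes as the summed lists, so the shares of dividing cells by type are not independent of those sums. In D1Tom, 32.4% of neuroblast-like cells were dividing (167 of 516), 24.9% of endothelial-like cells, 23.1% of OPC-like cells, 21.3% of microglia-like cells and 13.7% of astrocyte-like cells, against 3.69% of excitatory neuron-like cells (59 of 1598) and 3.02% of interneuron-like cells. Median counts per cell were 20918.5 in the excitatory neuron-like cells and 8761 in the neuroblast-like cells before thinning. Astrocyte-like cells gave 33.9% of all D1Tom dividing cells, OPC-like cells 22.1% and neuroblast-like cells 12.8%. In GTE, 40.0% of microglia-like cells (44 of 110), 16.0% of OPC-like cells and 5.40% of astrocyte-like cells were dividing, and 0 of 42 excitatory neuron-like cells, which allows a share of up to 8.41% by the exact 95% interval. When each cell was classed by its own markers instead of its cluster, astrocytes and OPCs gave 37.4 and 25.0% of the D1Tom dividing cells and 20.2 and 30.9% of those in GTE.

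Within types, the genotypes lay close together in the D1Tom OPC-like cells, at 23.8, 23.7, 24.8 and 20.3% dividing. Astrocyte-like cells of D1Tom were at 12.8, 19.0, 12.3 and 12.4%, with control 2 the highest. Different clusters held most astrocyte-like cells in different libraries: cluster 0, led by Slc7a10 with the immediate early genes Fos and Fosb, held 708 of 972 in control 1, and cluster 3 held 548 of 970 in cKO 2. Neuroblast-like cells were at 16.7, 40.6, 22.9 and 42.6%, again high in both libraries numbered 2. When cells were classed by their own markers, the neuroblast class was at 2.47% (2 of 81), 8.0% (2 of 25), 12.4% (21 of 169) and 43.5% (40 of 92), with both cKO libraries above both controls. The neuroblast-like cluster held 36, 32, 218 and 230 cells, so both control values rest on few. Cdca7 was among its leading genes, which were ranked after clustering, and the members were not used to form the clusters.

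In GTE, OPC-like cells were dividing at 14.0% in control 1 (14 of 100, exact 95% binomial interval 7.87 to 22.4%) and 7.95% in control 2 (14 of 176, 4.42 to 13.0%). They were at 17.2% in cKO 1 (75 of 437, 13.7 to 21.0%) and 23.9% in cKO 2 (33 of 138, 17.1 to 31.9%). Both cKO libraries were above both controls, though the intervals of control 1 and cKO 1 overlap. Astrocyte-like cells were at 6.92, 3.75, 3.82 and 11.1% and overlapped, with clusters 6 and 7 of this type held mostly by cKO 1 and by the other libraries respectively. Microglia-like cells, which lie outside the Emx1-Cre lineage, were at 42.1, 40.7, 35.3 and 43.3% and overlapped. The unnamed clusters 0 to 4 together were at 3.34, 2.36, 12.5 and 4.39%, so cKO 1 stood apart there, with 37 dividing of only 295 cells.

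**Figure D3:**
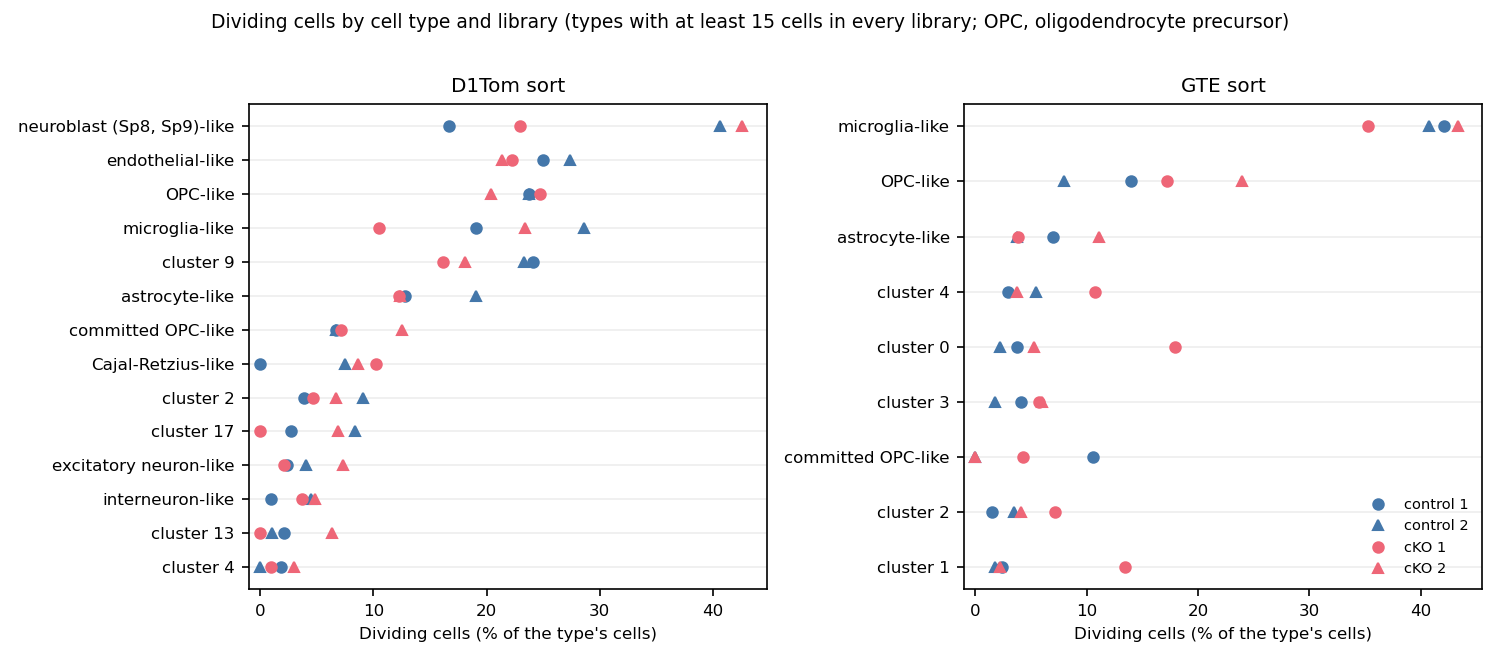
Share of dividing cells (horizontal axis, % of the type's cells thinned to 1000 counts) by cell type or cluster and library in each sort. GTE OPC-like cells are the named GTE type in which both cKO libraries (17.2 and 23.9%) lie above both controls, and in D1Tom the neuroblast-like values part by library number.

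Among regulators that the call did not use, Cdkn2c, an inhibitor of CDK4 and CDK6, was at 427, 250, 431 and 210 CPM in D1Tom G2/M cells and at 29.9, 26.9, 27.3 and 38.0 CPM in cells not called dividing. Ccnd2 in D1Tom S cells was at 748, 663, 1363 and 1291 CPM, and in G2/M cells at 721, 638, 1097 and 1301 CPM, with both cKO libraries above both controls in each phase. In cells not called dividing it was at 510, 418, 441 and 623 CPM, and the groups overlapped. Within astrocyte-like G2/M cells Ccnd2 was at 1226, 1037, 1279 and 908 CPM and overlapped, so the higher values over all dividing cells were not seen within that type. In neuroblast-like G2/M cells it was at 879, 1729, 2295 and 2679 CPM, from 5, 11, 37 and 81 cells.

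To compare genotypes gene by gene, counts were summed per library and compared by the quasi-likelihood test of edgeR, with p-values adjusted by Benjamini-Hochberg over all genes tested and a gene called at an adjusted p under 0.05. In such sums, a smaller share of dividing cells and less RNA per dividing cell cannot be told apart. No source says whether a library came from 1 animal or several, and the p-values measure the spread between these libraries only. All members in a table passed the filter on low counts, 43 in D1Tom and 44 in GTE.

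Over all D1Tom cells, 0 of 43 cell cycle genes were called, as were 0 of 14508 genes (0%). At an unadjusted p under 0.05, 8 of 43 were higher in cKO and 0 lower, where 1.46% of all genes were higher. The fitted change was above 0 for 40 of 43, with a median log2 fold change of 0.30 beside -0.0076 for all genes. Both cKO libraries lay above both controls for 20 of 43, against 9.70% of all genes, and below them for 1, Gmnn. Leaving out cKO 2 took the median to 0.10 and the number above 0 to 29. Fewer members, and fewer of all genes, were then higher at an unadjusted p under 0.05. With the replicate number as a block, which stands for the preparation day here, 17 members had an unadjusted p under 0.05, all higher, and still 0 were called. The block raised the number for all genes as well: 730 of 14508 were higher at that p, against 212 without it. DESeq2 called 20 genes, of which 1 is a member, Cdca7.

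Cdca7 had the smallest p of the members in D1Tom. The controls were at 7.94 and 7.81 CPM, and the cKO libraries, at 19.0 and 28.2 CPM, stood above them by more than the spread within a group. The log2 fold change was 1.67 (SE 0.29, unadjusted p 0.00135), with an adjusted p of 0.998 by edgeR, 0.184 by edgeR with the replicate block and 7.03e-04 by DESeq2. Within neuroblast-like cells, where Cdca7 was at 36.0, 72.2, 129 and 174 CPM, the edgeR log2 fold change was 1.48 (SE 0.41, adjusted p 0.993). In astrocyte-like cells it was at 17.6, 13.1, 13.8 and 11.5 CPM, and in OPC-like cells at 12.0, 4.86, 10.2 and 8.73 CPM, and in both the groups overlapped. The numbers of neuroblast-like cells, 36, 32, 218 and 230, moved with the level over all cells. Cells of the neuroblast class by their own markers numbered 81, 25, 169 and 92. The 7 neuroblast markers summed to 1206, 986, 1088 and 932 CPM over all D1Tom cells, and the groups overlapped. The part of these cells in the Cdca7 level over all cells was not tested.

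The other S genes had smaller differences in D1Tom. Pclaf, which encodes a partner of PCNA, was at 66.7, 76.3, 90.1 and 117 CPM, with a log2 fold change of 0.61 (SE 0.24, unadjusted p 0.0432). Pcna, the sliding clamp of DNA polymerases, was at 51.9, 39.8, 47.3 and 52.1 CPM and overlapped. Mcm2 of the helicase was at 4.76, 6.39, 5.80 and 9.41 CPM and overlapped as well. The cyclin E genes, which drive entry into S phase, were flat: Ccne1 was at 9.40, 6.09, 7.49 and 7.72 CPM and Ccne2 at 7.92, 7.81, 8.44 and 9.11 CPM. Across the 15 S genes the log2 fold change ran from -0.12 to 1.67 with a median of 0.30.

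D-type cyclins and the CDK-binding subunit Cks1b were not separated by genotype in D1Tom. Ccnd1 was at 82.7, 89.8, 69.2 and 91.8 CPM. Ccnd2 was at 530.8, 449.1, 528.7 and 744.1 CPM, so only cKO 2 was above the controls. Cks1b was at 71.2, 68.1, 80.0 and 64.2 CPM.

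Of the 25 G2/M genes in D1Tom, 24 had a fitted change above 0, with a median of 0.30 and a range from -0.15 to 0.70. Hmgb2, a DNA-bending chromatin protein, was at 135.2, 114.4, 178.1 and 204.5 CPM, and the groups did not overlap (log2 0.70, SE 0.19, unadjusted p 0.0118, edgeR adjusted p 0.998). Ccnb1, the cyclin B1 partner of CDK1 at mitotic entry, was at 27.4, 23.7, 42.2 and 29.8 CPM (log2 0.55, unadjusted p 0.0158). Birc5, survivin of the chromosomal passenger complex, was at 43.9, 38.6, 58.2 and 46.8 CPM (log2 0.41, unadjusted p 0.0234). In each of these the cKO libraries were the higher pair, by a margin for Ccnb1 and Birc5 that is smaller than the gap between cKO 1 and cKO 2.

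Ccna2, cyclin A2 of S and G2, had libraries close together within each group, at 27.5, 27.6, 35.7 and 36.1 CPM (log2 0.45, unadjusted p 0.0265). Cenpa, the histone variant of centromeres, was at 61.5, 59.8, 85.9 and 66.1 CPM, with no overlap of the groups. Cenpf, a kinetochore protein, was at 51.8, 59.8, 68.3 and 65.8 CPM, also with no overlap. Cks2, a CDK-binding subunit, was at 74.1, 61.2, 86.8 and 77.2 CPM and Top2a at 48.8, 56.6, 59.7 and 65.2 CPM, and in both cKO 1 and cKO 2 were above the controls by a narrow margin. Mki67 overlapped, at 31.2, 33.5, 33.3 and 36.7 CPM (log2 0.18, SE 0.18, unadjusted p 0.343).

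**Figure D4:**
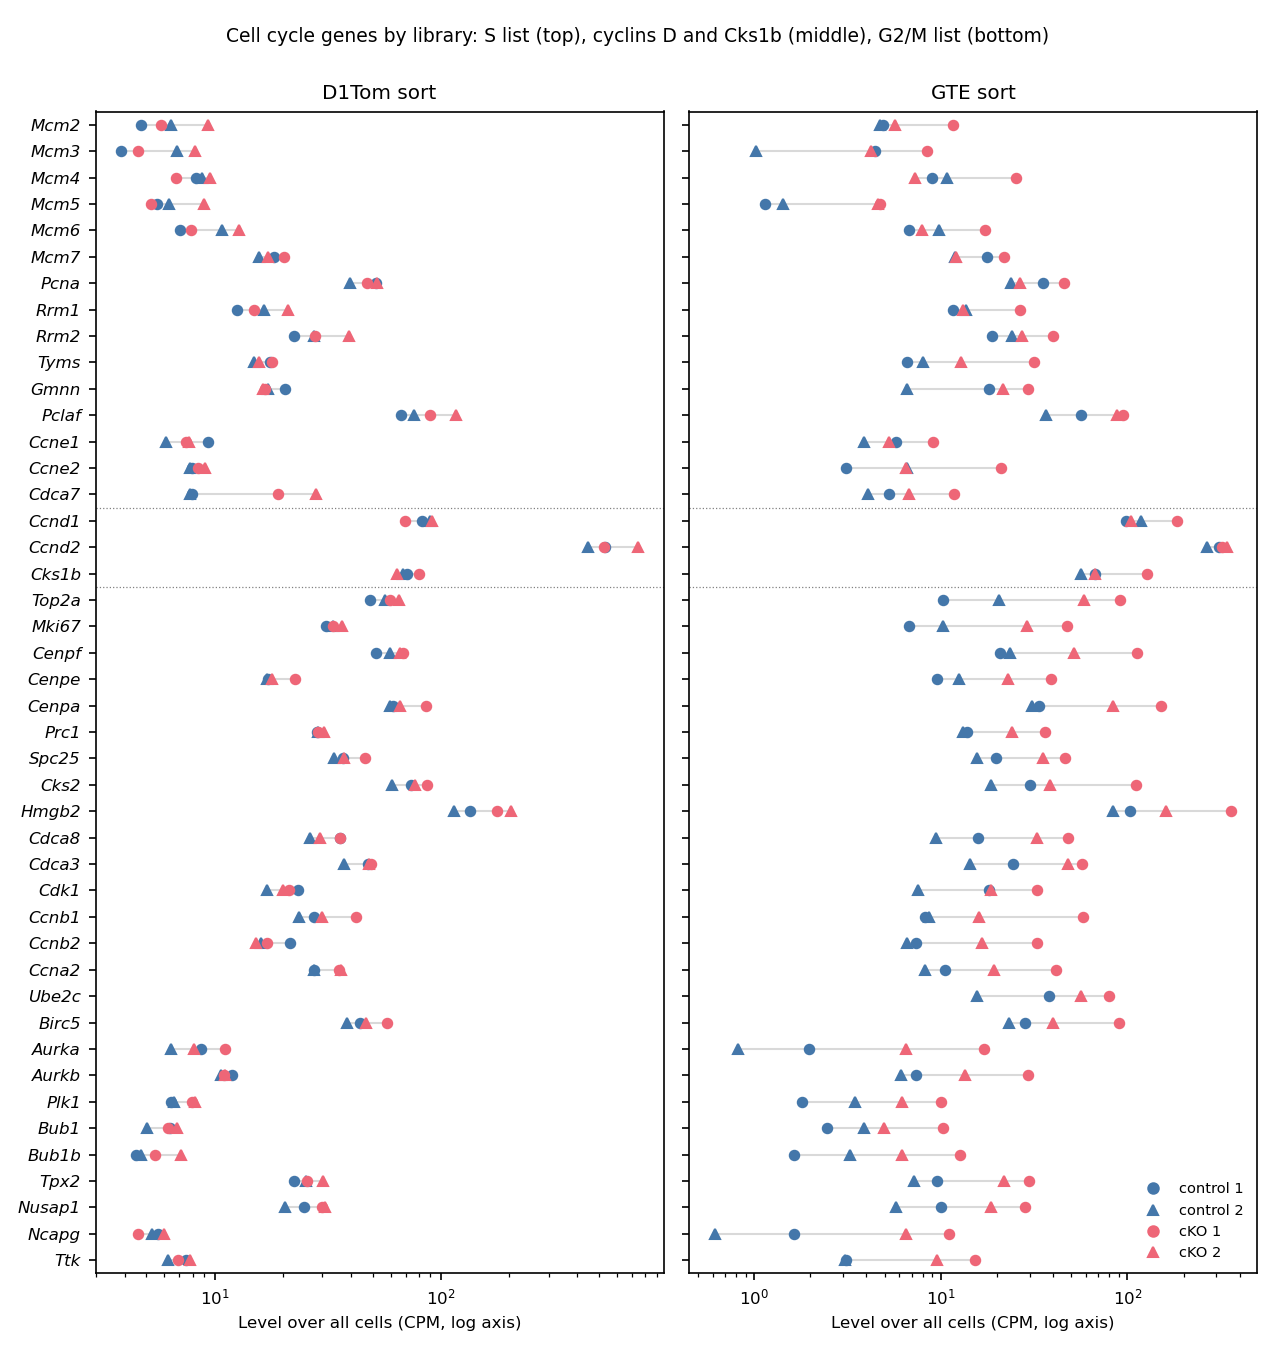
Level of each cell cycle gene over all cells of each library (horizontal axis, CPM, log axis), for the S list at the top, the D-type cyclins and Cks1b in the middle and the G2/M list at the bottom. In D1Tom Cdca7 spreads from 7.81 to 28.2 CPM and Hmgb2 from 114.4 to 204.5 CPM, and in GTE the cKO libraries lie above the controls for every gene of the G2/M list.

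Over all GTE cells the differences were larger and ran in 1 direction for the G2/M list. The libraries differed in cell make-up, with cKO 1 apart from the rest. OPC-like cells were 2.83, 6.12, 30.4 and 5.03% of clustered cells, and astrocyte-like cells 4.60, 9.28, 36.4 and 6.55%. The part of these shares in the values over all cells was not tested. No cell cycle gene was called by edgeR (0 of 44), beside 4 of 12042 genes in all (0.0332%), and DESeq2 called 0 genes. At an unadjusted p under 0.05, 16 of 44 were higher in cKO and 0 lower by edgeR, and 14 by DESeq2, where 2.84% of all genes were higher by edgeR. The fitted change was above 0 for 40 of 44, with a median of 0.98 beside -0.047 for all genes. Both cKO libraries lay above both controls in CPM for 35 of 44, against 19.6% of all genes, and below them for 0. Over the 26 G2/M genes every fitted change was above 0, from 0.45 to 2.47 with a median of 1.18, and 15 had an unadjusted p under 0.05. Over the 15 S genes the median was 0.36, 13 were above 0 and 1, Tyms, had an unadjusted p under 0.05. The median of the 44 members ranged from 0.63 to 1.30 when each library was left out in turn. It was 0.63 without control 2, with 35 of 44 above 0, and 0.85 without cKO 1. Fewer members had an unadjusted p under 0.05 in both of these settings. The number of all genes higher at that p rose without control 2 and fell without cKO 1.

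Top2a had the smallest p of the members in GTE, at 10.3, 20.5, 91.7 and 58.5 CPM (log2 1.91, SE 0.54, unadjusted p 5.17e-04, edgeR adjusted p 0.365). Aurka, the kinase of spindle poles, was at 1.97, 0.82, 17.0 and 6.54 CPM (log2 fold change 2.47, SE 0.72, adjusted p 0.427 by edgeR). Mki67 was at 6.73, 10.2, 47.7 and 29.0 CPM (log2 fold change 1.77, SE 0.54, adjusted p 0.603 by edgeR). Both cKO libraries were above both controls for all 3, with cKO 1 the highest. Ncapg, a subunit of condensin I, was at 1.64, 0.615, 11.0 and 6.54 CPM (log2 2.41, SE 0.77) and Ccnb1 at 8.21, 8.61, 58.0 and 16.1 CPM (log2 1.58, SE 0.55), with edgeR adjusted p-values of 0.603 and 0.743. For Ccnb1 most of the difference lay in cKO 1, since cKO 2 was nearer to the controls than to cKO 1.

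The more abundant G2/M transcripts had the same order of libraries in GTE. Hmgb2 was at 103.1, 83.8, 360.1 and 160.5 CPM (log2 0.96, SE 0.61, unadjusted p 0.116). Cenpf was at 20.8, 23.6, 113.2 and 51.8 CPM, Cenpa at 33.6, 30.7, 150.9 and 84.0 CPM and Cks2 at 30.2, 18.7, 111.2 and 38.4 CPM. In each, cKO 1 was more than 1.5 times cKO 2, which in turn was above both controls. Ube2c, the E2 enzyme of the anaphase-promoting complex, was at 37.9, 15.6, 79.5 and 56.4 CPM. The remaining G2/M genes, Cenpe, Prc1, Spc25, Cdca8, Cdca3, Cdk1, Ccnb2, Ccna2, Birc5, Aurkb, Plk1, Bub1, Bub1b, Tpx2, Nusap1 and Ttk, had fitted changes from 0.45 to 1.55, and the control and cKO libraries did not overlap for any of them.

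Replication and G1 genes were less clearly apart in GTE. Pcna was at 35.5, 23.8, 46.0 and 26.7 CPM and overlapped. Mcm2 was at 4.92, 4.71, 11.6 and 5.66 CPM, so cKO 2 was only just above the controls. Pclaf did not overlap, at 56.5, 36.7, 94.7 and 88.2 CPM (log2 0.56, SE 0.54, unadjusted p 0.301). Ccne1 was at 5.74, 3.89, 9.07 and 5.30 CPM and Ccne2 at 3.12, 6.56, 20.9 and 6.54 CPM, both with overlap. Ccnd1 was at 97.99, 118.7, 184.8 and 104.7 CPM, with a log2 fold change of -0.02. Ccnd2, at 308.3, 268.5, 322.7 and 344.1 CPM, was above the controls in CPM but had a fitted log2 fold change of -0.16 after TMM scaling. Cks1b was at 66.8, 56.6, 126.8 and 67.4 CPM, with cKO 1 alone well above the rest.

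In GTE the OPC and microglia marker sums were higher in both cKO libraries than in both controls, as the G2/M genes were. The astrocyte marker sums overlapped between the groups. The 8 OPC markers summed to 1273, 1419, 4438 and 1757 CPM, all 8 above 0 in each library, and the 8 microglia markers to 46.9, 100.0, 470 and 115 CPM, also all above 0. The 8 astrocyte markers summed to 2390, 5217, 6683 and 3392 CPM and the 8 excitatory neuron markers to 1211, 1623, 542 and 1060 CPM. With type shares held at their mean, the difference in dividing cells was 5.58 points. The part of these markers in the members' values over all cells was not tested.

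In GTE OPC-like cells, 41 cell cycle genes could be tested and 0 were called by edgeR, beside 0 of 8302 genes (0%). DESeq2 also called 0 genes. At an unadjusted p under 0.05, 24 of 41 were higher in cKO by edgeR and 16 by DESeq2, where 1.83% of all genes were higher by edgeR. Both cKO libraries lay above both controls for 32 of 41 and below for 2, Ccnd1 and Ccnd2, against 21.2% of all genes above. The median log2 fold change was 1.23, beside -0.026 for all genes, and 25 of 25 G2/M genes but 8 of 13 S genes were above 0. Summed over the G2/M list, the level was 1008, 596, 3028 and 2415 CPM, and over the S list 354, 387, 573 and 553 CPM. Without cKO 1 or cKO 2 the members at an unadjusted p under 0.05 numbered 12 and 11, and without control 1, 10 members were called: Aurkb, Birc5, Ccnb1, Cdca3, Cenpa, Cenpf, Cks2, Hmgb2, Top2a and Ube2c, among 46 of 9489 genes. Without control 2, 1 was called, Tyms, which had 0 counts in control 1, among 36 of 9481.

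Cenpa had the smallest p there, at 73.1, 53.2, 336 and 270 CPM in OPC-like cells (log2 fold change 2.11, SE 0.46, adjusted p 0.507 by edgeR). Top2a was at 56.6, 34.9, 161 and 204 CPM (log2 fold change 1.86, SE 0.48, adjusted p 0.713 by edgeR). Cks2 was at 37.8, 16.5, 193 and 88.2 CPM, Hmgb2 at 179, 105, 604 and 322 CPM and Mki67 at 44.8, 25.7, 92.5 and 77.0 CPM. In all 5 the cKO libraries were above the controls, with cKO 1 the highest in 4 and cKO 2 in Top2a. Pcna was at 37.8, 38.5, 48.2 and 43.4 CPM, a log2 fold change of 0.12 after scaling. Geminin (Gmnn), which blocks a second round of replication, was at 4.72, 7.34, 35.8 and 43.4 CPM, from 2, 4, 55 and 31 counts. Ccnd1 was at 309, 233, 230 and 190 CPM and Ccnd2 at 295, 358, 224 and 277 CPM, with the controls the higher pair in both.

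The other GTE types had 0 members called by edgeR or DESeq2. Cluster 0, led by neuronal genes such as Mef2c and Necab1, had 29 members tested and 8 with an unadjusted p under 0.05, all higher, against 2.92% of all genes higher, and 0.0112% of its genes were called. Its median was 1.08, and without cKO 2, 5 members were called, among 262 of 9723 genes. Without cKO 1, which gave 106 of the 2306 cells, 0 of 33 members had an unadjusted p under 0.05 and the median was 0.56, and without control 2, 2 of 39 did. In astrocyte-like cells 1 of 31, Mki67, had an unadjusted p under 0.05 (log2 1.32), and 1, Top2a, was called without control 2, among 57 of 9569 genes. The median there was 0.38, and -0.37 without cKO 2. The called share of all genes was 0% in astrocyte-like and committed OPC-like cells and in clusters 1, 2, 3 and 4, where 1 to 31 members could be tested. Without cKO 2, 3 of 17 members were called in cluster 1, where 552 of 7110 genes were, and 1 of 12 in cluster 2, where 514 of 5066 were.

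In D1Tom the values within types differed in direction. In astrocyte-like cells all 43 fitted changes were below 0, with a median of -0.25 beside 0.0082 for all genes, and both cKO libraries lay below both controls for 19 of 43, against 12.6% of all genes. At an unadjusted p under 0.05, 2 members were lower, where 1.08% of all genes were lower, and 0 were called (0% of all genes). DESeq2 called 0 members and gave 1 an unadjusted p under 0.05. The 2 were Gmnn, at 44.6, 29.6, 19.2 and 14.2 CPM (log2 fold change -1.11, SE 0.27, adjusted p 0.999 by edgeR), and the thymidylate synthase gene Tyms, at 25.5, 23.8, 16.9 and 13.8 CPM (log2 -0.65, SE 0.24). Without control 2, Gmnn and Ccnb2 were called lower, among 785 of 12656 genes called in that setting. When each library was left out in turn the median stayed below 0, from -0.43 to -0.20, and 3 to 7 of the 43 members had a change above 0.

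In OPC-like cells of D1Tom the members had changes on both sides of 0. The fitted change was above 0 for 15 of 43, the median was -0.036, and 0 members were called (0% of all genes) or had an unadjusted p under 0.05 by edgeR or DESeq2. The median was -0.48 without cKO 1, with 7 of 43 above 0, and 0.14 without cKO 2, with 28 above 0. Top2a and the other G2/M genes there had changes from -0.52 to 0.45. In neuroblast-like cells 0 members were called (0% of all genes), and 3 had an unadjusted p under 0.05, where 2.45% of all genes were higher: Cdca7, Ccnd2 and Ccne2, with log2 fold changes of 1.48, 0.98 and 2.03. With the replicate block, Cdca7 (1.53) and Ccnd2 (1.02) were called higher in these cells, among 22 of 10070 genes. Without control 2, 4 members were called, Ccnd2, Cdca7, Mcm5 and Pclaf, among 171 of 11397 genes. The median over the 43 members was 0.20, with 29 above 0, and 0.0024 without control 1. The sum over the G2/M list in neuroblast-like cells ran only from 2874 to 3200 CPM over the 4 libraries.

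In excitatory neuron-like cells 32 of 43 members had a change above 0 (median 0.33), in Cajal-Retzius-like cells 20 of 24 (0.55), in cluster 13 16 of 26 (0.21), in interneuron-like cells 14 of 33 (-0.04) and in cluster 2 6 of 25 (-0.32). In these types and cluster 4, 0 members were called by edgeR or DESeq2, and the called share of all genes was 0.0323% in cluster 2, 0.0110% in cluster 4 and 0% in Cajal-Retzius-like, excitatory neuron-like and interneuron-like cells and cluster 13. With the replicate block, Ccnd2 (log2 1.36) and Pclaf (2.06) were called higher in Cajal-Retzius-like cells, where Pclaf was at 2.41, 27.7, 33.1 and 81.8 CPM and Ccnd2 at 75.9, 370, 336 and 611 CPM. The block called 90 of 8818 genes there. Without control 2 the same 2 genes were called, among 60 of 9340, and Ccnd2, Hmgb2 and Pclaf in cluster 13, among 58 of 10804. Without cKO 1, 6 members were called in excitatory neuron-like cells, Ccnd1, Ccnd2, Cdca7, Hmgb2, Mki67 and Pclaf, among 172 of 13156 genes. Without cKO 2, the median there was -0.31, and 6 members had an unadjusted p under 0.05, all lower. In these neurons Hmgb2 was at 21.1, 26.8, 19.8 and 74.4 CPM and Ccnd2 at 64.6, 189, 87.2 and 350 CPM, so cKO 2 stood apart, and batch moved with both.

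**Figure D5:**
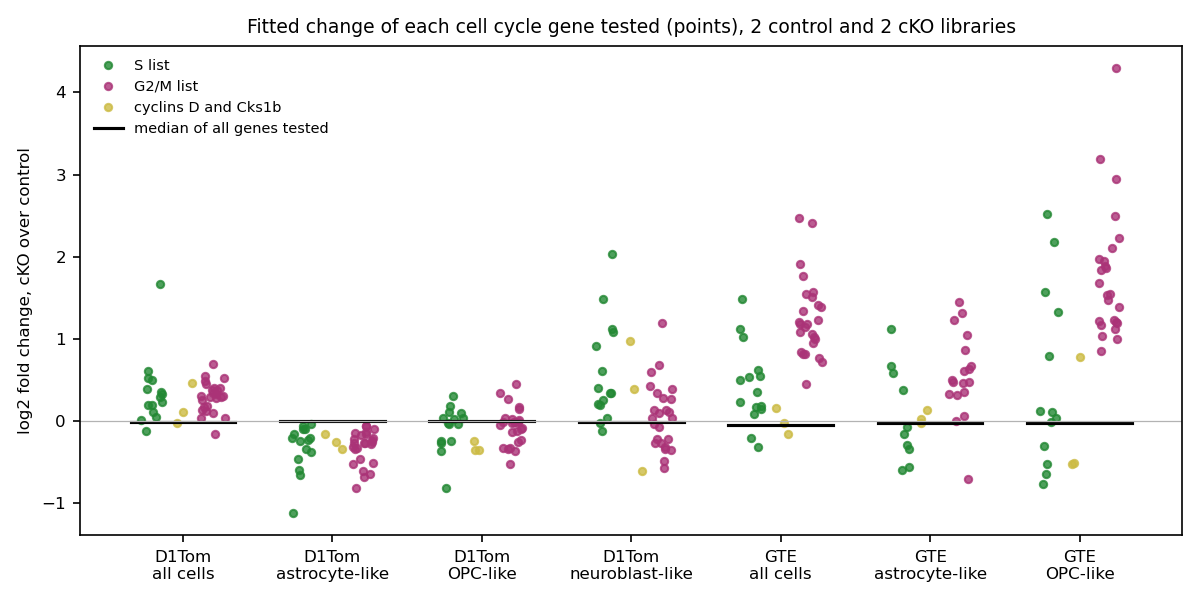
Fitted log2 fold change, cKO over control (vertical axis), of each cell cycle gene tested (points, coloured by list) for all cells and for selected types of each sort; the black line is the median of all genes tested. The G2/M genes lie above 0 in all GTE cells (median 1.18) and GTE OPC-like cells, and every point lies below 0 in D1Tom astrocyte-like cells.

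The difference between the sorts was tested itself, with all 8 libraries in 1 fit. For the interaction of genotype and sort, 0 of 43 members were called by edgeR, beside 0 of 14026 genes (0%), and DESeq2 called 6 genes and 0 members. At an unadjusted p under 0.05, 10 members had the larger change in GTE and 0 in D1Tom by either tool, where 1.92% of all genes did so by edgeR. The median interaction was 0.65 on the log2 scale, beside -0.034 for all genes, and ranged from 0.25, without GTE control 2, to 0.93, without GTE control 1. Without GTE control 2, 27 of 43 members were above 0, against 34 with all libraries. All 25 G2/M genes were above 0, with a median of 0.89, and 7 of the 15 S genes, with a median of -0.06. Mki67 had the smallest p of the members (1.59, SE 0.40, edgeR adjusted p 0.941), and Cdca7 pointed the other way (-1.16, SE 0.56, edgeR adjusted p 0.941). The number at an unadjusted p under 0.05 changed with the library left out, among the members and among all genes.

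Further genes of the same pathway, from lists that hold no members, gave similar counts. In D1Tom 0 of 31 other G2/M genes, 0 of 26 other replication genes and 0 of 27 regulators were called by edgeR, with 29, 24 and 19 above 0 and medians of 0.22, 0.093 and 0.13. The smallest p-values were those of Racgap1, which acts at the cleavage furrow (26.2, 26.5, 35.3 and 37.4 CPM), Ckap2, a spindle protein (15.9, 13.9, 22.4 and 16.5 CPM), and Kif11, the motor that separates spindle poles (13.4, 13.5, 17.1 and 18.7 CPM). None of these 3 groups overlapped. In GTE 1 of 28 other G2/M genes, 0 of 23 other replication genes and 0 of 26 regulators were called, with 27, 18 and 24 above 0 and medians of 1.16, 0.45 and 0.47.

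The called gene was Kif20b, a kinesin of late mitosis that also acts in the shape of neurons, which rose in GTE cKO. It was at 1.31, 3.28, 34.1 and 12.9 CPM (log2 fold change 2.91, SE 0.63, adjusted p 0.0322 by edgeR). By DESeq2 its adjusted p was 0.0884, and over the other edgeR settings it ranged from 5.83e-04 to 1.00, not passing with the replicate block or without control 1, control 2 or cKO 1 (0.674, 1.00, 0.124 and 0.956). In GTE cells not called dividing it was at 1.10, 0.79, 6.01 and 5.12 CPM, and in G2/M cells at 14.2, 78.6, 234 and 96.8 CPM. Kif23 and Cdc20 had the next smallest p-values, with log2 fold changes of 2.44 and 1.96. In D1Tom, Kif20b was at 9.57, 8.62, 10.3 and 9.22 CPM and overlapped.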

How the data were processed

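The authors deposited for each sort 1 table of molecule counts by gene and cell, and a table that gives each cell's library, its total count and the fraction of its counts from mitochondrial genes. The submitters' processing notes name bcl2fastq 2.17.1.14, Cell Ranger 2.1.1, FastQC 0.11.5, UMI-tools 0.5.4, STAR 2.5.2b, Subread 1.6.2 with featureCounts and SAMtools 1.6, and the builds mm10 and GRCm38.p6. In some libraries counts of 2 were more frequent than counts of 1, which is unusual for single-molecule counts, so no counting intervals are given for summed counts. The cell cycle genes and all other lists were chosen with earlier results of these data known.

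Cells with at least 500 counts were clustered per sort with scanpy 1.11.5 and leidenalg 0.10.2 (2000 variable genes, 30 components, 20 neighbours, resolution 1) without the members and the genes that follow them. A cluster was named where at least 3 markers of a list were at least 2-fold higher than elsewhere. The doublet caller's own threshold marked 0 to 7 cells per library and had not worked, so all cells were kept, and leaving out the highest doublet scores was an alternative. Counts were summed per library, for all cells and for types with at least 30 cells in every library, and fitted with the quasi-likelihood test of edgeR 4.0.16 in R 4.3.3 with Benjamini-Hochberg adjustment, after TMM scaling and filterByExpr. The tests were run on simulated data first. DESeq2 1.42.0, other scaling, no filter, the replicate block and leaving out each library were alternatives. CPM were not TMM-scaled. Same-numbered D1Tom libraries share a batch in the labels, and their deviations from the group means had a correlation of 0.548. Named with values were, per sort, the 5 members with the smallest p, the 8 with the highest CPM, Top2a, Mki67, Cenpf, Pcna, Mcm2, Ccnd1, Ccnd2, Ccne1, Ccne2, Cks1b, Cks2, Hmgb2 and Pclaf, and the 3 other cell cycle genes with the smallest p, and any further gene was chosen after its values were seen.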

Additional observations from a re-analysis of the deposited data

How the results depend on the processing

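With 2 libraries per group, few tests can pass adjustment, and GTE cells had about 1000 counts in 3 libraries, which limits detection per cell. DESeq2 called 1 member and 20 genes in all D1Tom cells, 0 genes in all GTE cells and 6 for the interaction of genotype and sort. Without a filter on low counts, 18 genes were called in all GTE cells, 8 in GTE OPC-like cells, and 2 members within types of each sort. The replicate block called 1 gene in all D1Tom cells, and 4 members within D1Tom types. Over all D1Tom cells it gave 17 members, and 1342 of all 14508 genes, an unadjusted p under 0.05. In GTE, where numbers give no known pairing (correlation -0.352), the replicate block called 0 genes over all cells and 4 in OPC-like cells. Over all GTE cells it gave 10 members, and 326 of all 12042 genes, an unadjusted p under 0.05. The crossed pairing, added after seeing the data, called 24 genes and 2 members over all GTE cells and 4 genes in OPC-like cells.

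When each library was left out in turn, 0 to 11 members were called within D1Tom types and 0 to 10 within GTE types. Over all cells, 0 to 6 D1Tom genes and 1 to 27 GTE genes were called, with 2 to 10 and 6 to 20 members at an unadjusted p under 0.05, and 5 to 20 for the interaction. In GTE OPC-like cells 1 to 46 genes were called, with 11 to 27 such members. With 1 library left in an arm, that library is assumed to vary like the other group.

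The D1Tom difference in dividing share, cKO minus control, was -3.63 points with no thinning and -1.05 with type shares held, and -1.20 to 3.25 with single libraries left out (-1.15 without cKO 2). The GTE difference was 7.76 with no thinning, 2.81 when thinned to 300 detected genes, and 3.04 to 6.41 with single libraries left out, above 0 throughout. The difference in G2/M share in D1Tom was 1.64 with no thinning, -2.68 from at least 3 genes and -2.30 to 0.98 with libraries left out. In GTE it was 3.65 at 500 counts, -4.59 at 2000 counts, -5.26 with no thinning, 0.065 from at least 3 genes, 2.38 at 300 detected genes and 4.29 at 500 counts with at least 3 genes, and -3.03 to 0.92 with libraries left out (0.77 without control 1). The settings with 300 detected genes, with 500 counts and 3 genes, and with type shares held were added after seeing the data. The cause of these changes was not tested. Among 41 named gene results, 12 of 389 alternative values had the other sign, in 8 genes whose log2 fold change was at most 0.20 in size.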

Other observations

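An unnamed D1Tom cluster, led by Pdgfra, Cspg4 and Gpr17 of the oligodendrocyte lineage together with Calcrl, Itgav and Sox9, held 29, 180, 68 and 232 cells in control 1, control 2, cKO 1 and cKO 2, so that it was larger in both libraries of the second preparation day. In it, 24.1, 23.3, 16.2 and 18.1% of cells were dividing, which puts it near the named OPC-like cells. Cdkn1a, the CDK inhibitor p21, which the members do not include, was lower in both cKO libraries of each sort. It was at 45.6, 66.8, 38.2 and 42.2 CPM in D1Tom and at 29.7, 26.4, 11.2 and 24.4 CPM in GTE, and neither difference passed the test (edgeR adjusted p 0.998 and 0.967). Foxm1, the mitotic transcription factor, was at 6.18, 6.37, 7.80 and 7.72 CPM in D1Tom and 1.48, 1.84, 6.51 and 4.77 CPM in GTE, above the controls in both cKO libraries of each sort, and was not called either (edgeR adjusted p 0.998 and 0.964). Both were picked with their values in view.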
